A study of Sus scrofa with 16 samples.

Results

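The miR-30 family was examined in the ovaries of 16 Canadian Large White sows, in small RNA libraries with 1 library per sow. Its members were the entries of the count table named ssc-miR-30 with a letter from a to e. The rule found 5 members, ssc-miR-30a-5p, ssc-miR-30b-5p, ssc-miR-30c-5p, ssc-miR-30d and ssc-miR-30e-5p, of 216 known miRNAs and of 1940 entries in all, the other 1724 being predicted miRNAs. The family was selected on measured values, since earlier results of these same counts put its luteal level above its follicular level, so the phase difference of the members is given here as a description with no test. That description held for ssc-miR-30d. Whether it held for the family sum depended on how the libraries were scaled, and the members are therefore described one by one.

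The sows differed in fecundity, the size of the litters they bore, and in the phase of the estrous cycle at which the ovaries were taken. The 4 groups of 4 sows each were luteal phase ovaries of high fecundity (LH) and low fecundity (LL) sows on day 14, and follicular phase ovaries of high fecundity (FH) and low fecundity (FL) sows on day 20. Apart from phase and fecundity the labels name no allele or treatment that differed between the groups. Each phase was sampled from different sows, so a phase difference is a difference between animals. In the study's records the LH sows had borne more litters than the LL sows with no overlap, so parity and fecundity cannot be told apart in LH vs. LL.

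A miRNA guides a silencing complex to messenger RNAs that pair with its seed, bases 2 to 8 counted from the 5′ end, and the bound messages are translated less or degraded. The members of the miR-30 family share this seed, so they can bind the same sites, and differ in the bases behind it. The family is known for its abundance in many tissues and for restraining autophagy and the shift of epithelial cells to a mesenchymal state. Within the ovary it has been studied in granulosa cells, which line the follicle and later give rise to luteal cells.

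The genes of the family lie in pairs. In the RefSeq gene table of Sscrofa11.1, a later assembly than that of the counts, 6 miR-30 genes were found and all of them stood next to another miR-30 gene, in 3 adjacent pairs. MIR30D was the neighbour of MIR30B, MIR30C-2 of MIR30A, and MIR30C-1 of MIR30E. The entry ssc-miR-30c-5p was not split by gene, so both miR-30c genes may have contributed to it.

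The seed of the family, GUAAACA, was searched at bases 2 to 8 of the mature sequences of 1700 predicted miRNAs on the sequence strand given, and 1 of them (0.0588%) held it there. Anywhere in the sequence the motif was found in 2 (0.118%). The matching sequence is shown because it is the predicted entry with the family's seed, with the seed in capitals and read 5′ to 3′.
NovelmiRNA-174: uGUAAACAauuccuagguaaugu
Its predicted precursor lies on chrX:69515841-69515903, on the plus strand of Sscrofa10.2. NovelmiRNA-174 had between 0 and 37 counts per library, was above 0 in 11 of the 16 libraries, and summed to 156 counts. Another entry, NovelmiRNA-1555, lists the same sequence as its star strand and had 13 counts, all of them in library LH1. Against members with at least 9560 counts in every library, neither entry added a measurable part to the family, and a shared seed alone does not make either a member.

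The libraries held between 8998496 and 37194836 counts, of which the miR-30 members took 1.08% to 3.08%. Levels are in CPM, the counts scaled to a common library total, after scaling by the trimmed mean of M-values (TMM), a scaling that centres most entries between libraries. The abundant ssc-miR-143-3p took 14.3% to 26.5% of the follicular and 9.22% to 17.8% of the luteal counts. ssc-miR-21 stood above it in LH1, LH3 and each LL library, and below it in LH2, LH4 and each follicular library. The TMM factors were 0.670 to 1.23 in the follicular and 0.851 to 1.74 in the luteal libraries. Because these factors went together with the phase, the phase differences of the members are also given with library size as the only scaling. The gonad-enriched ssc-miR-202-5p was present in every library, at 1209 to 3843 CPM in luteal and 64.5 to 1302 CPM in follicular ovaries. The epithelial ssc-miR-34c stood at 18.3 to 196 CPM in 13 libraries and at 21379 CPM in LH4, 7335 CPM in FL2 and 15224 CPM in FL4, and the main results are also given without these libraries, a choice made after the values were seen.

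All 5 members were abundant, and each passed the filter on low counts. The 196 known entries with distinct counts were ranked by their median CPM over the libraries. The rank was 22 for ssc-miR-30a-5p, 24 for ssc-miR-30d, 25 for ssc-miR-30e-5p, 33 for ssc-miR-30c-5p and 47 for ssc-miR-30b-5p. Over the 16 libraries the mean level of ssc-miR-30a-5p was 6220 ± 1876 CPM (SD), that of ssc-miR-30d 4524 ± 2268 CPM and that of ssc-miR-30e-5p 4258 ± 954 CPM. The mean levels of ssc-miR-30c-5p and ssc-miR-30b-5p were 2068 ± 445 CPM and 1103 ± 238 CPM. Mature miRNAs are read whole, so a CPM value here does not depend on transcript length, but libraries made by ligation do not take up all sequences equally. The order of members is therefore an order of counts.

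ssc-miR-30d, from the gene next to MIR30B, was the member that varied most, with 4.92-fold between its highest and lowest library. In the LH sows it stood at 5754, 4418, 7475 and 5100 CPM. The LL sows had 5546, 10597, 5096 and 5562 CPM. In the FH sows it stood at 3072, 2451, 2393 and 2776 CPM. The FL sows had 2427, 2153, 2743 and 4820 CPM. Of the 8 luteal libraries 7 were above the highest follicular library, the exception being LH2 at 4418 CPM, which lay below FL4.

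Mean levels of ssc-miR-30d were 5687 ± 1311 CPM for LH and 6701 ± 2607 CPM for LL, against 2673 ± 315 CPM for FH and 3036 ± 1214 CPM for FL (SD, n = 4 each). On the log2(CPM + 1) scale the luteal level was 1.11 higher (SE 0.199), a 2.16-fold difference. It was 1.07 higher among high fecundity sows and 1.15 higher among low fecundity sows, which are separate sets of animals. With library size as the only scaling the difference was 1.54 (SE 0.256). Without the 3 libraries rich in ssc-miR-34c it was 1.17, and then all 7 remaining luteal libraries stood above all 6 remaining follicular ones. FL4, the follicular library above LH2, was among those left out. How many entries separated the phases in the remaining libraries was not examined.

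ssc-miR-30a-5p, the most abundant member, overlapped widely between the groups. Its level in the LH sows was 3246, 6001, 11073 and 7156 CPM. In the LL sows it was 5986, 5999, 3619 and 4673 CPM. The spread among the LH sows, 6869 ± 3247 CPM (SD, n = 4), was the widest of this member. In the FH sows its level was 5121, 6523, 5730 and 7076 CPM, and in the FL sows 7130, 5121, 6420 and 8640 CPM. The luteal minus follicular difference was -0.19 (SE 0.224) on the log2 scale, and 0.24 (SE 0.228) with library size as the only scaling, so its direction rested on the scaling. With library size without miR-143 it was -0.06 (SE 0.247).

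ssc-miR-30e-5p lay lower in the luteal libraries under TMM scaling, with an overlap. It stood at 2469, 4180, 4222 and 3394 CPM in LH, and at 3748, 3212, 4198 and 4019 CPM in LL. The follicular values were 4260, 3882, 4723 and 6566 CPM in FH, and 4231, 4593, 5791 and 4642 CPM in FL. The follicular libraries other than FH2 all stood above the highest luteal library. The difference was -0.39 (SE 0.138) under TMM scaling and -0.26 (SE 0.148) with library size without miR-143. With library size only it was 0.04 (SE 0.164), so the lower luteal level was not seen under that scaling.

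ssc-miR-30b-5p, the neighbour of ssc-miR-30d in the genome, was the least abundant member. In LH it stood at 656, 908, 1430 and 1247 CPM, and in LL at 894, 917, 902 and 886 CPM, the tightest group of all (900 ± 13.2 CPM, SD, n = 4). In FH it stood at 1215, 1079, 1188 and 1547 CPM, and in FL at 1072, 1171, 1413 and 1125 CPM. The difference between the phases was -0.35 (SE 0.144) under TMM scaling and 0.08 (SE 0.164) with library size only. The pair from adjoining genes thus lay on opposite sides of 0 under TMM scaling and on the same side, 1.54 against 0.08, with library size only. With library size without miR-143 the values were 1.24 for ssc-miR-30d and -0.21 (SE 0.168) for ssc-miR-30b-5p.

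ssc-miR-30c-5p, which has a gene in each of the other pairs, hardly differed between the phases under TMM scaling. In LH it stood at 2049, 3137, 2259 and 2434 CPM, and in LL at 1297, 1768, 1640 and 2487 CPM. In FH it stood at 1945, 2128, 2027 and 2522 CPM, and in FL at 1839, 1657, 2205 and 1694 CPM. The difference was 0.06 (SE 0.133), and 0.49 (SE 0.109) with library size only. With library size without miR-143 it was 0.19 (SE 0.0986).

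**Figure D1:**
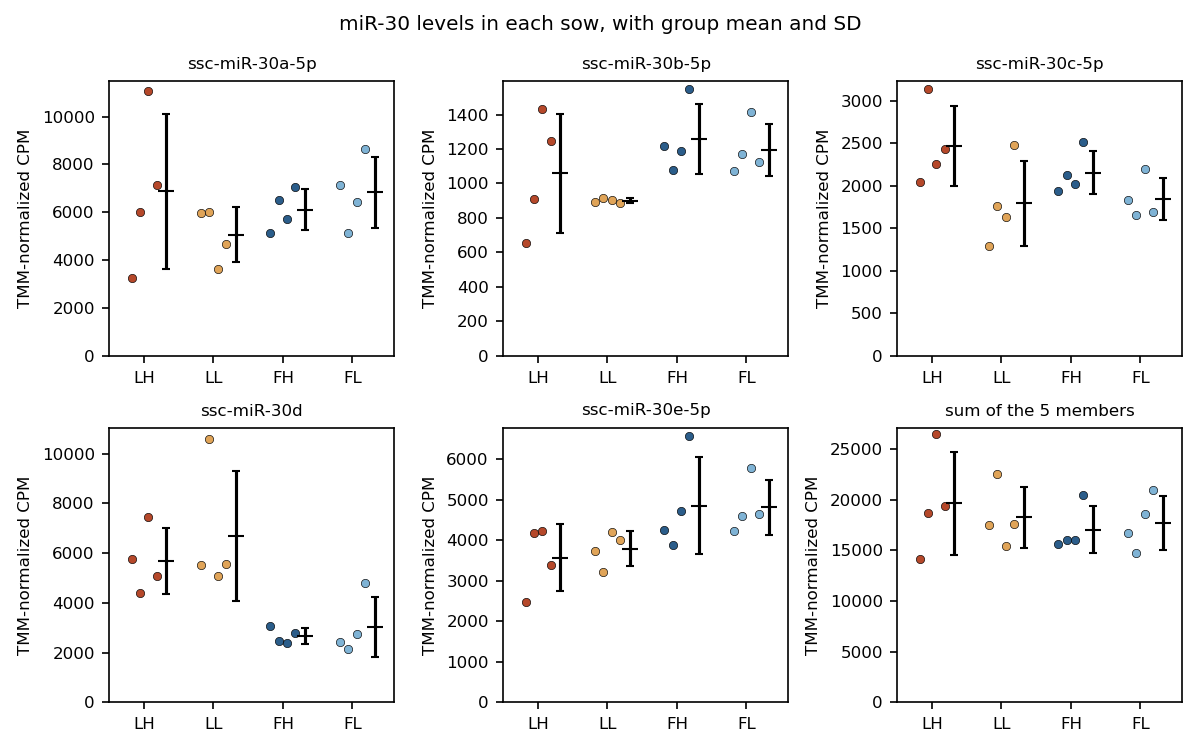
Level of each miR-30 member and of their sum in TMM-normalized CPM (vertical axes, from 0), with a point for each of the 4 sows of a group and the group mean and SD beside them. In the panel of ssc-miR-30d the means of the luteal groups LH and LL stand above those of the follicular groups FH and FL. LL2 at 10597 and FL4 at 4820 CPM stand apart from their groups. The lowest luteal value, LH2 at 4418 CPM, lies below FL4, and in the other panels the values of both phases overlap as well.

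Summed over the 5 members, the family level was nearly the same in both phases under TMM scaling. The sum was 14174 to 26459 CPM in luteal and 14696 to 20921 CPM in follicular libraries. Its means were 19652 ± 5082 CPM for LH and 18262 ± 2990 CPM for LL, against 17056 ± 2297 CPM for FH and 17722 ± 2656 CPM for FL (SD, n = 4 each). The luteal minus follicular difference of the sum was 0.11 (SE 0.129) under TMM scaling, beside a median of 0.12 over the 445 entries. With library size only it was 0.54 (SE 0.157), but the median entry had then moved to 0.36. Relative to the median entry the sum differed by -0.01 and 0.18, and ssc-miR-30d by 0.99 and 1.18. With library size without miR-143 the difference of the sum was 0.25 (SE 0.160) beside a median of 0.20. Relative to that median the sum differed by 0.04 and ssc-miR-30d by 1.04.

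Measured against the median entry, ssc-miR-30a-5p, ssc-miR-30b-5p and ssc-miR-30e-5p stood below it under both scalings. Their values were -0.31, -0.47 and -0.51 under TMM scaling, and -0.12, -0.28 and -0.32 with library size only. ssc-miR-30c-5p stood at -0.06 and 0.13. Ranked by phase difference among the 196 distinct known entries, ssc-miR-30d came 28th from the top and the other members between 93rd and 128th, with 98 known entries above 0. With library size only ssc-miR-30d came 25th and the others between 91st and 123rd.

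Over all 445 entries, 17.5% differed between the phases at an adjusted p under 0.05 (quasi-likelihood test of edgeR, Benjamini-Hochberg), while in 0.449% every luteal library stood above every follicular one. None of the 5 members was in the second set, since ssc-miR-30d missed it by LH2. The number of luteal libraries of ssc-miR-30d above its highest follicular library depended on the scaling. It was 7 of 8 under TMM scaling, 8 with factors taken from the known miRNAs only, 6 with library size only and 3 with library size without miR-143, and the differences were 1.11, 1.08, 1.54 and 1.24.

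**Figure D2:**
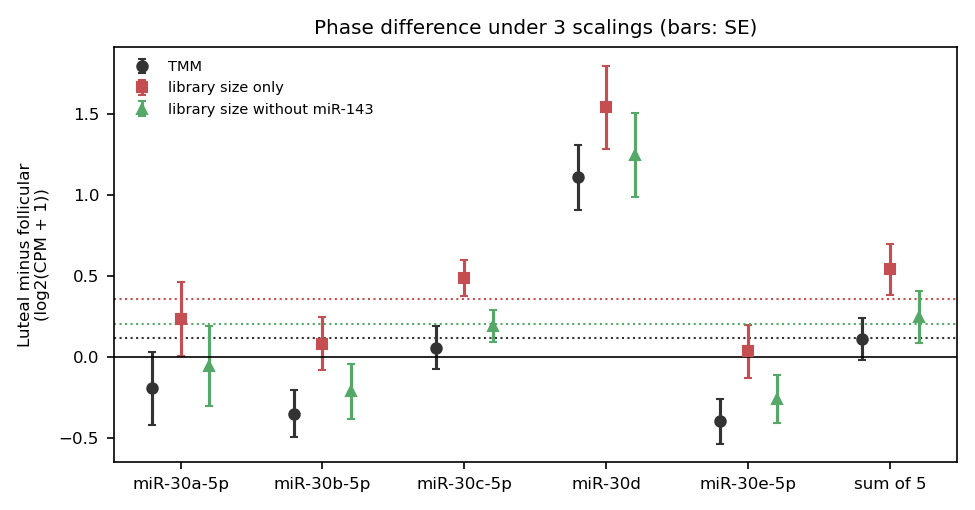
Luteal minus follicular difference in mean log2(CPM + 1) of each member and of the sum of 5 (vertical axis), with the SE as bars, under TMM scaling, library size only and library size without miR-143, and dotted lines at the median of all entries under each. ssc-miR-30d lies at 1.11, 1.54 and 1.24, above the dotted lines, whereas ssc-miR-30a-5p, ssc-miR-30b-5p and ssc-miR-30e-5p lie below the dotted line of their scaling.

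The share of each member in the miR-30 counts of a library does not depend on the scaling between libraries. By this measure the phases differed most in ssc-miR-30d. It made up 40.6%, 23.7%, 28.3% and 26.4% of the miR-30 counts in LH, and 31.7%, 47.1%, 33.0% and 31.6% in LL. The follicular shares were 19.7%, 15.3%, 14.9% and 13.5% in FH, and 14.5%, 14.7%, 14.8% and 23.0% in FL. Every luteal share was above every follicular share, though LH2 and FL4 were close at 23.7% and 23.0%. Without the 3 libraries rich in ssc-miR-34c, the lowest luteal share was 23.7% and the highest follicular share 19.7%. How often the shares of members of other families do not overlap between the phases was not examined.

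Mean shares of ssc-miR-30d were 29.7 ± 7.48% for LH and 35.8 ± 7.54% for LL, against 15.8 ± 2.66% for FH and 16.7 ± 4.20% for FL (SD, n = 4 each). Averaged over fecundity, the luteal share was 16.5 percentage points higher. The shares of the other members must then sum to less, and the difference fell mainly to ssc-miR-30e-5p and ssc-miR-30a-5p. The share of ssc-miR-30e-5p was 14.3% to 27.2% in luteal and 22.2% to 32.1% in follicular libraries. For ssc-miR-30a-5p these ranges were 22.9% to 41.8% and 32.8% to 42.7%.

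The smaller members overlapped as well. ssc-miR-30b-5p made up 4.08% to 6.45% of the luteal and 5.38% to 7.97% of the follicular miR-30 counts, and ssc-miR-30c-5p 7.42% to 16.8% and 8.10% to 13.2%. The phase difference of the ssc-miR-30c-5p share was -0.0589 percentage points, much smaller than its spread among sows. In all 8 follicular libraries ssc-miR-30a-5p led the family. In the luteal libraries it led in 3 LH sows and 1 LL sow, and ssc-miR-30d led in LH1 and in 3 LL sows.

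**Figure D3:**
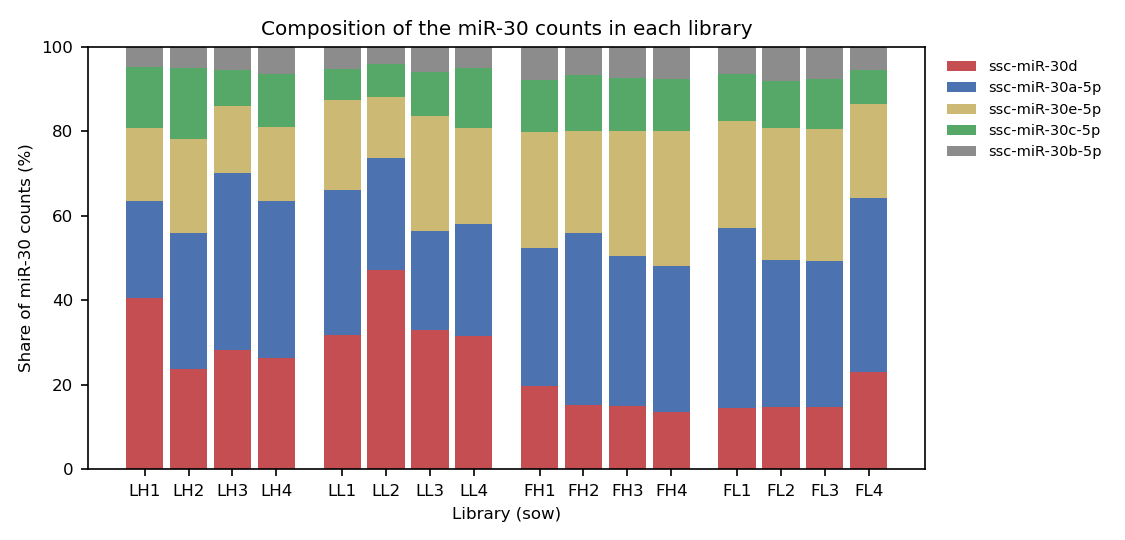
Share of each member in the miR-30 counts of each library (vertical axis, percent, stacked to 100), with 1 bar per sow and the groups set apart. The lowest segment, ssc-miR-30d, spans 23.7% to 47.1% in the 8 luteal bars and 13.5% to 23.0% in the 8 follicular bars.

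Ratios between members within a library are likewise free of the scaling. The ratio of ssc-miR-30d to its genomic neighbour ssc-miR-30b-5p was 8.77, 4.87, 5.23 and 4.09 in LH, and 6.21, 11.6, 5.65 and 6.27 in LL. In FH it was 2.53, 2.27, 2.01 and 1.79, and in FL 2.26, 1.84, 1.94 and 4.29. Apart from FL4, which lay above LH4, each luteal ratio was above each follicular ratio, and the medians were 5.93 and 2.14. LH4 and FL4 were both among the libraries rich in ssc-miR-34c, and without these the ratio was 4.87 to 11.6 in luteal and 1.79 to 2.53 in follicular libraries. The ratio of ssc-miR-30d to ssc-miR-30c-5p overlapped between the phases, at 1.41 to 5.99 in luteal and 1.10 to 2.85 in follicular libraries. The ratio to ssc-miR-30a-5p did not overlap, at 0.675 to 1.77 in luteal and 0.340 to 0.600 in follicular libraries. The ratio to ssc-miR-30e-5p ran from 1.06 to 3.30 in luteal and from 0.423 to 1.04 in follicular libraries. By contrast, the ratio of ssc-miR-30e-5p to ssc-miR-30b-5p was 3.87 ± 0.757 in luteal and 3.93 ± 0.256 in follicular libraries (SD, n = 8 each), a difference smaller than the spread. How often the ratios of other pairs of entries do not overlap between the phases was not examined.

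**Figure D4:**
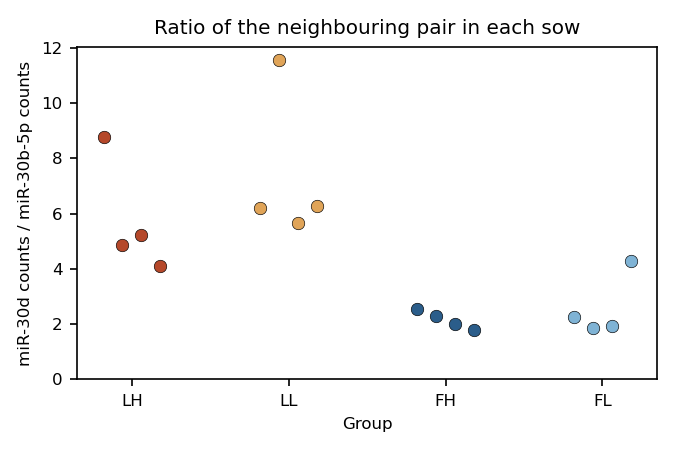
Ratio of miR-30d counts to miR-30b-5p counts (vertical axis, from 0) in each sow of the 4 groups (horizontal axis). The LH and LL points lie between 4.09 and 11.6, and the FH and FL points between 1.79 and 2.53 except for FL4 at 4.29.

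The order of the members changed with the group, and neighbours in the order often overlapped. In FH and FL the order by mean was ssc-miR-30a-5p, ssc-miR-30e-5p, ssc-miR-30d, ssc-miR-30c-5p and ssc-miR-30b-5p. In FH the second and the third did not overlap, and neither did the last pair, but in FL only the last pair did not. In LH ssc-miR-30d stood in second place, overlapping ssc-miR-30a-5p above it but not ssc-miR-30e-5p below it. In LL it stood first with ssc-miR-30a-5p and ssc-miR-30e-5p next, each overlapping its neighbour, and ssc-miR-30c-5p and ssc-miR-30b-5p came last without overlap. The place of ssc-miR-30b-5p below the other members held in every library.

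The members did not all vary together among sows. Across the 16 libraries the Pearson r of log2(CPM + 1) was 0.78 between ssc-miR-30b-5p and ssc-miR-30e-5p and 0.70 between ssc-miR-30a-5p and ssc-miR-30b-5p. After the group means were subtracted these values were 0.73 and 0.70. Between ssc-miR-30d and ssc-miR-30e-5p r was -0.57, and -0.13 after that subtraction. The neighbours ssc-miR-30d and ssc-miR-30b-5p had an r of -0.42, and of 0.17 after subtraction. Without the 3 libraries rich in ssc-miR-34c, the 4 pairs had an r of 0.85, 0.73, -0.58 and -0.46. These are descriptions over libraries in which all members share the scaling.

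The question the study put to these ovaries was whether miRNAs differ between high and low fecundity sows within a phase, and for the miR-30 family no such difference passed a test. Of the 5 members, 0 were called in LH vs. LL and the count for FH vs. FL was 0 as well, either at an adjusted p under 0.05 or at the study's threshold, which asks for an unadjusted P under 0.05 and a log2 difference of 1 or more in size. Over all entries, 0.829% of 362 were called at the adjusted threshold and 13.0% at the study's threshold in LH vs. LL. In FH vs. FL these shares were 0.651% and 6.19% of 307. With backgrounds this low, 0 of 5 at either threshold says little about the members.

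In LH vs. LL the differences, as LL minus LH, were small beside their intervals. For ssc-miR-30d the log2 difference was 0.27 (95% confidence interval -0.39 to 0.92, edgeR adjusted p = 0.679). Without LL2, its highest library, it was -0.12. For ssc-miR-30c-5p it was -0.45 (-1.04 to 0.14, edgeR adjusted p = 0.405), and 3 of the 4 LL sows stood below the lowest LH sow. The share of all entries with such a count was not examined. For ssc-miR-30a-5p it was -0.40 (-1.21 to 0.42), for ssc-miR-30b-5p -0.21 (-0.80 to 0.39) and for ssc-miR-30e-5p 0.12 (-0.40 to 0.63). With library size only, the values of ssc-miR-30a-5p, ssc-miR-30b-5p and ssc-miR-30c-5p turned to 0.25, 0.43 and 0.13, while those of ssc-miR-30d and ssc-miR-30e-5p grew to 0.86 and 0.74 (edgeR unadjusted P = 0.0191 and 0.0104, neither past the adjusted threshold). The TMM factors were 0.851 to 1.07 in LH and 1.19 to 1.74 in LL. The median over all entries was 0.15 under TMM scaling. Without LH1 the value of ssc-miR-30a-5p was -0.67 and without LH3 -0.15, and without LL4 that of ssc-miR-30c-5p was -0.71 (edgeR unadjusted P = 0.0362).

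In FH vs. FL the differences, as FL minus FH, were smaller still. For ssc-miR-30c-5p the log2 difference was -0.25 (95% confidence interval -0.73 to 0.23, edgeR adjusted p = 0.770), with 3 of the 4 FL sows below the lowest FH sow. How many other entries had such a count was not examined here either. For ssc-miR-30d it was 0.11 (-0.46 to 0.68, edgeR adjusted p = 0.903), and -0.11 without FL4. ssc-miR-30a-5p had 0.12 (-0.40 to 0.65), ssc-miR-30b-5p -0.10 (-0.54 to 0.34) and ssc-miR-30e-5p -0.04 (-0.49 to 0.42). Under TMM scaling these follicular intervals reached 0.73 at most in either direction. A difference of 1 or more on the log2 scale thus lay outside each of them under that scaling. With library size only the value was 0.52 for ssc-miR-30d and 0.48 for ssc-miR-30a-5p (edgeR unadjusted P = 0.245 and 0.119). It was 0.05 to 0.27 for the other members, and intervals under this scaling are not given here. In the luteal phase the TMM intervals of ssc-miR-30a-5p and ssc-miR-30c-5p reached past -1.

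**Figure D5:**
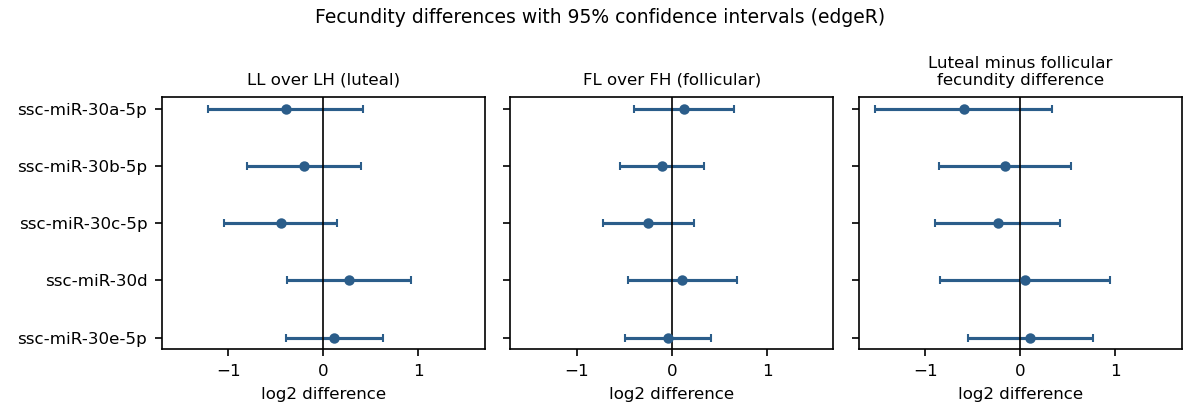
Log2 difference of each member (horizontal axes) with its 95% confidence interval from edgeR, for low minus high fecundity in the luteal phase (left), in the follicular phase (middle) and for the luteal minus the follicular value of that difference (right). Every interval crosses the line at 0.

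The test of whether the fecundity difference itself differed between the phases called 0 of the 5 members (adjusted p under 0.05, 0% of 445 entries). In this test 63 entries had an unadjusted P under 0.05 in edgeR, and DESeq2 called 58 at an adjusted p under 0.05, with 0 members among them. The estimate was -0.60 for ssc-miR-30a-5p (95% confidence interval -1.53 to 0.34, edgeR adjusted p = 0.591) and 0.05 for ssc-miR-30d (-0.84 to 0.95). That of ssc-miR-30a-5p was -0.83 without LH1 (edgeR unadjusted P = 0.0370) and -0.31 without LH3. A comparison of low with high fecundity over both phases, added after the data were seen, likewise called 0 members (0% of 445 entries, of which 78 had an unadjusted P under 0.05 and DESeq2 called 52). In it ssc-miR-30c-5p had -0.34 (-0.67 to -0.01, edgeR unadjusted P = 0.0440, adjusted p = 0.279), and 0.09 with library size only. That scaling gave 0.69 for ssc-miR-30d and 0.51 for ssc-miR-30e-5p (edgeR unadjusted P = 0.0184 and 0.0107), against 0.21 and 0.04 under TMM scaling.

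Among 159 known miRNAs with at least 10 counts in every library, those whose level followed the family sum most closely over the 16 libraries were ssc-miR-7 (Pearson r = 0.65), ssc-let-7i (0.55), ssc-miR-20b (0.53), ssc-miR-146b (0.50) and ssc-miR-340 (0.48). The least alike were ssc-miR-149 (-0.50), ssc-miR-24-2-5p (-0.48) and ssc-miR-24-1-5p (-0.48). This order was unstable, since only 1 of the first 5 remained among the first 5 with library size only.

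The entries most like ssc-miR-30d alone, a list made after the values were seen, had higher r. They were ssc-miR-182 (0.90), ssc-miR-148b-5p (0.89), ssc-miR-222 (0.86), ssc-miR-183 (0.85) and ssc-miR-7 (0.84), and 4 of these 5 remained with library size only but 2 by Spearman rho, 2 without FL4, and 3 without LL2, FH1, FH2, FH3 or FL2. After the group means were subtracted, their r was 0.77, 0.76, 0.65, 0.70 and 0.80. ssc-miR-182 and ssc-miR-183, which come from a shared cluster and are known from epithelia and sensory cells, were high in some of the libraries in which ssc-miR-30d was high. ssc-miR-182 stood at 747 CPM in LH3, 738 CPM in LL2 and 581 CPM in LL1, against 73.9 to 298 CPM in the other luteal libraries. ssc-miR-183 was highest in LL1, at 270 CPM, where ssc-miR-30d stood at 5546 CPM, with 253 CPM in LL2 and 236 CPM in LH3. In the follicular phase ssc-miR-182 stood at 292 CPM in FL4, against 30.6 to 140 CPM in the other follicular libraries. Library FL4 was the highest of its group in ssc-miR-30d, ssc-miR-182 and ssc-miR-34c, with FL2 also high in the last. Without the 3 libraries rich in ssc-miR-34c, the r of the 5 entries with ssc-miR-30d was 0.84 to 0.93.

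Other miRNAs with known roles in gonadotropin response and steroid synthesis were set beside the family. Of the 7 listed, 2 rose in the luteal phase, ssc-miR-202-5p by 2.02 and ssc-miR-21, known for promoting survival of luteal and granulosa cells, by 1.94 on the log2 scale (edgeR adjusted p = 0.00824 and 0.00295). ssc-miR-378, known to target aromatase, fell by 0.942 (edgeR adjusted p = 0.00448). With library size only these differences were 2.46, 2.30 and -0.52, of which the last was no longer called (edgeR adjusted p = 0.143), and ssc-miR-224 passed the test at 1.61. None of the list was called between fecundity groups in either phase, with 6 of 7 tested in LH vs. LL and 7 of 7 in FH vs. FL.

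Markers of other cell types moved with the phases too, and the calls given here are under TMM scaling. In bulk ovary fewer cells of a type and less RNA per cell cannot be told apart. Both distinct smooth muscle entries fell in the luteal phase, where ssc-miR-143-3p fell by 1.12 and ssc-miR-145-5p fell by 1.89 on the log2 scale, and their sum ran from 71951 to 212844 CPM in luteal and from 170439 to 444650 CPM in follicular libraries. The skeletal and cardiac muscle sum was 449 to 3256 CPM and 565 to 4256 CPM, with 1 of 5 tested entries higher and 3 lower. The leukocyte sum was 827 to 1941 CPM against 1489 to 2994 CPM, with 2 of 4 lower. The epithelial sum was 145 to 21828 CPM against 157 to 16083 CPM, with ssc-miR-182 and ssc-miR-183 higher and ssc-miR-205 lower of 5. Without the 3 libraries rich in ssc-miR-34c this sum was 145 to 1118 CPM against 157 to 300.4 CPM. With library size only the smooth muscle differences were -0.66 and -1.46 and both still passed, whereas ssc-miR-206, ssc-miR-150 and ssc-miR-205 did not.

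The remaining lists did not pass the test between the phases under TMM scaling. The endothelial ssc-miR-126-5p was at 7751 to 26360 CPM in luteal and 2461 to 11872 CPM in follicular libraries, and passed with library size only (1.37, edgeR adjusted p = 0.00721). The erythrocyte sum was 36.4 to 186 CPM against 32.1 to 128 CPM, and the liver entry ssc-miR-122 1.76 to 99.5 CPM against 3.27 to 1363 CPM. Between fecundity groups 1 marker was called, the muscle entry ssc-miR-1, which fell by 2.24 on the log2 scale from LH to LL (edgeR adjusted p = 0.0413). Over 17 alternatives its adjusted p ran from 1.22e-07 (DESeq2) to 0.222 (replicate block), and it was called in 5 of them. The part of these cell types in the phase difference of ssc-miR-30d was not tested.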

How the data were processed

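Small RNA libraries were made from ovary tissue of 16 sows, 4 per group. The authors trimmed the reads, aligned them to Sscrofa10.2 with Bowtie2 2.1.0 per the labels, predicted further miRNAs with miRDeep, and deposited raw read counts per entry and library, without normalization. How reads were assigned to near-identical miRNAs or to arms is not given in the sources used here. No member had the same counts as another entry, but 935 entries did, including both arms of miR-143, so reads of the other arm of a miR-30 hairpin may be included.

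Tests used edgeR 4.0.16 under R 4.3.3 (its quasi-likelihood F test, TMM factors, count minimum of 10 and total of at least 15), with Benjamini-Hochberg adjustment over all entries tested. LH vs. LL and FH vs. FL used the 8 libraries of a phase, other results all 16. Levels are TMM-normalized CPM, with log2 taken after adding a pseudocount of 1. Library totals of 8998496 to 37194836 set a floor of 3 counts at 0.0807 to 0.333 CPM, for counting error only. Alternatives were DESeq2 1.42.0, other scalings and filters, collapsed entries, a replicate block and leaving out libraries.

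The miRNAs named are the members, predicted entries with the seed, the 5 known miRNAs most like and the 3 least like the family sum, the 5 most like ssc-miR-30d and listed markers, of which those like ssc-miR-30d and the uncalled ssc-miR-34c, ssc-miR-126-5p, ssc-miR-122 and ssc-miR-224 were picked with their values in view. The members and lists were chosen with earlier results of these data known. Columns without a sample numbered 0.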

Additional observations from a re-analysis of the deposited data

Results flagged for a closer look

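Within groups of 4 sows, 44 sets of values were examined for a single library far from the others by Dixon's criterion (a gap over 0.83 of the range for 4 samples), of which chance flags about 1 in 20. In LL, library LL2 had a ssc-miR-30d level of 10597 CPM against 5096 to 5562 CPM in the other 3 sows, and its ssc-miR-30d share of the miR-30 counts was 47.1% against 31.6% to 33.0%. In FL, library FL4 had a ssc-miR-30d share of 23.0% against 14.5% to 14.8%. The family sum was 20486 CPM in FH4 against 15613 to 16062 CPM in the other FH sows.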

How the results depend on the processing

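No member was called at either threshold under the alternatives run. Leaving out each sow in turn, the luteal minus follicular difference was 0.9956 to 1.205 for ssc-miR-30d and 0.036 to 0.187 for the sum. Library size only gave 1.54 and 0.54, and library size without miR-143 gave 1.24 and 0.25. With library size only, LH vs. LL turned to 0.25 for ssc-miR-30a-5p, 0.43 for ssc-miR-30b-5p and 0.13 for ssc-miR-30c-5p, and FH vs. FL to 0.21 for ssc-miR-30b-5p, 0.053 for ssc-miR-30c-5p and 0.27 for ssc-miR-30e-5p. The interaction turned to 0.22 for ssc-miR-30b-5p and 0.080 for ssc-miR-30c-5p, and the comparison over both phases to 0.37, 0.32 and 0.093 for ssc-miR-30a-5p, ssc-miR-30b-5p and ssc-miR-30c-5p. Without a filter, ssc-miR-30e-5p had 0.016 in FH vs. FL and -0.0033 over both phases. Without the libraries rich in ssc-miR-34c, a choice made after seeing the data, FH vs. FL was 0.0203 for ssc-miR-30b-5p, -0.0041 for ssc-miR-30d and 0.084 for ssc-miR-30e-5p. The cause was not tested.

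When each sow was left out, LH vs. LL ran from -0.12 (without LL2) to 0.37 for ssc-miR-30d and from -0.055 to 0.18 for ssc-miR-30e-5p. FH vs. FL ran from -0.14 to 0.033 for ssc-miR-30b-5p, from -0.11 (without FL4) to 0.25 for ssc-miR-30d and from -0.11 to 0.15 for ssc-miR-30e-5p. The interaction ran from -0.23 to 0.32 for ssc-miR-30d and from -0.0998 to 0.24 for ssc-miR-30e-5p, and over both phases ssc-miR-30e-5p ran from -0.058 to 0.084. Of the 5 miRNAs most like the family sum, 1 was kept with library size only, 1 where TMM factors came from the known miRNAs, 2 without a filter, 3 with identical entries collapsed, 1 with library size without miR-143 and 1 to 4 when a sow was left out. Of those most like ssc-miR-30d, 2 to 5 were kept when a sow was left out.

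Counts over all entries moved more. At the adjusted threshold LH vs. LL had 3 calls, and 28 by DESeq2, 1 with all 16 libraries in the fit, and 0 without a filter, with collapsed entries or without the libraries rich in ssc-miR-34c. FH vs. FL had 2, and 11 by DESeq2 but 0 with library size only, without a filter, with at least 10 counts in 4 libraries or with all 16 libraries in the fit. The interaction had 0, and 24 without a filter, and the comparison over both phases 0, and 9 without a filter and 1 with collapsed entries. Leaving out 1 sow at a time gave 0 to 8 adjusted calls in LH vs. LL (8 without LH1) and 0 to 1 in FH vs. FL. It gave 0 to 6 in the interaction (6 without LH1) and 0 over both phases. At the study's threshold, leaving out the filter moved 47, 19, 59 and 52 calls to 158, 93, 122 and 129, in that order, and FH vs. FL had 37 with all 16 libraries and 7 without the libraries rich in ssc-miR-34c. Over both phases that last setting gave 32. Left-out sows gave 33 to 94 in LH vs. LL (94 without LH1) and 11 to 43 in FH vs. FL.

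Between sows with the same replicate number, the deviations from the group means had an r of -0.16 to 0.15 in the luteal groups. In the follicular groups r was -0.25 to 0.15. With 4 sows per group these values cannot settle whether the numbers pair the sows. With a replicate block, both fecundity comparisons had 0 adjusted calls over all entries, calls at the study's threshold went to 32 for LH vs. LL, 4 for FH vs. FL and 39 for the interaction, and ssc-miR-30d had 0.21 for LH vs. LL and 0.07 for FH vs. FL.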
